A study of Homo sapiens with 5 samples.

Results

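The MAGE genes are a family of cancer-testis antigens, and 7 of them are described here (MAGEA1, MAGEA3, MAGEA4, MAGEA11, MAGEA12, MAGEB2 and MAGEC2), out of 20220 RefSeq gene entries with usable values. They were taken by name, after matching each RefSeq identifier to its symbol, and all 7 had an entry of their own. The names were chosen with earlier results of these data known, and 14 other type I MAGE genes with an entry, 6 of them listed at 0 in every group, are described after them. The cells were HEK 293T, a line derived from human embryonic kidney that carries the SV40 large T antigen and that the labels call non-malignant, and their RNA was sequenced after removal of ribosomal RNA. The control group was grown without drug (2 libraries), the treated group for 3 days with 1.0 µM 5-aza-CdR (5-aza-2'-deoxycytidine; 2 libraries), and the recovery group was kept in culture for a further 30 days after that treatment (1 library). All groups are the same line grown in the same medium. The authors deposited 1 FPKM value (fragments per kilobase of transcript, scaled to library size) for each group, so neither a spread between replicates nor an SD stands beside any value, and tests come only from the authors' q-values against control (p-values adjusted for multiple testing). The labels say that cells were grown in triplicate, but not which culture each library came from. The treated and recovery comparisons share their control.

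MAGE proteins share a MAGE homology domain through which they bind RING-type E3 ubiquitin ligases and alter what those ligases mark for degradation. Type I genes, to which all 7 belong, sit in clusters of the MAGEA, MAGEB and MAGEC subfamilies on the X chromosome. They are normally transcribed in male germ cells and are kept silent in most somatic cells, where their promoters are methylated at CpG dinucleotides. Peptides of the A subfamily shown on HLA molecules are targets of T cells, which is how the family was found, in melanoma. Type II genes such as MAGED1 are expressed in many tissues. 5-aza-CdR is a cytidine analogue that dividing cells incorporate, and it depletes the enzymes that copy methylation onto new strands.

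RefSeq promoters (250 bases before to 50 after a transcription start, GRCh38.p14) were listed for 6 of the 7 genes, 11 promoters in all because MAGEA4 has 5 listed starts and MAGEA12 has 2. The 7 letters GGATGTG, read on either strand, were in all 11 of these promoters, against 4.29% of 35116 promoters of the same length. The letters, which hold the GGAT core seen in binding sites of ETS family factors, were searched for after the sequences had been read. The windows below show 60 bases around the stretch, in capitals, 5′ to 3′ on the gene's strand.
MAGEA3 (chrX:152698688-152698747, + strand): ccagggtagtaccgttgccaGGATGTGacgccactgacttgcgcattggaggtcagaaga
MAGEA4, first listed start (chrX:151912434-151912493, + strand): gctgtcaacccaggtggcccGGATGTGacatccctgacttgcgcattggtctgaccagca
MAGEA11 (chrX:149712027-149712086, + strand): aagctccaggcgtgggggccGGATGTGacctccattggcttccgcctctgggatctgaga
MAGEA12 (chrX:152733725-152733784, + strand): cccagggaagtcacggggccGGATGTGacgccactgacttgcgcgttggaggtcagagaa
MAGEB2 (chrX:30215480-30215539, + strand): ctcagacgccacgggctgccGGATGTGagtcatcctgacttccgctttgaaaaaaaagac
MAGEC2 (chrX:142205257-142205316, - strand): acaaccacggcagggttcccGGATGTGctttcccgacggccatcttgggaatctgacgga

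In 5 of the 6 genes the stretch was preceded by CC, so that its first G closed a CpG. The longer form CCGGATGTG was in 10 of the 11 promoters and in 0.339% of all promoters, and MAGEA3 was the gene without it. It was also in 7 of 20 promoters of other type I MAGE genes, among them MAGEA2 and MAGEA9B. Those 2 genes were listed at 0 FPKM in every group. A second stretch, GACTTGCGC, stood a few bases further on in MAGEA3, MAGEA4 and MAGEA12 (8 of 11 promoters, against 0.159% of all), and it was not found in MAGEA11, MAGEB2 or MAGEC2. The other type I genes held it in 4 of 20 promoters, so neither stretch is particular to the 7 genes. The A subfamily genes are copies of one another, so their shared letters are not independent observations.

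Whole promoters are given for MAGEB2, which had the highest level of the 7 genes under the drug, and for MAGEA3, the one gene called by the authors, with each CpG, the dinucleotide that is methylated, in capitals.
MAGEB2 (chrX:30215313-30215612, + strand): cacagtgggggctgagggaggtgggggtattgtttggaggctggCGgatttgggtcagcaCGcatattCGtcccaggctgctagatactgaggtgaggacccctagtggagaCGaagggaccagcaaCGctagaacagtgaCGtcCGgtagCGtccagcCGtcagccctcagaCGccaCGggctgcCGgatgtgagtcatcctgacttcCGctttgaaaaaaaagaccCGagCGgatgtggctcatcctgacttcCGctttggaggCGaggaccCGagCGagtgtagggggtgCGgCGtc
MAGEA3 (chrX:152698544-152698843, + strand): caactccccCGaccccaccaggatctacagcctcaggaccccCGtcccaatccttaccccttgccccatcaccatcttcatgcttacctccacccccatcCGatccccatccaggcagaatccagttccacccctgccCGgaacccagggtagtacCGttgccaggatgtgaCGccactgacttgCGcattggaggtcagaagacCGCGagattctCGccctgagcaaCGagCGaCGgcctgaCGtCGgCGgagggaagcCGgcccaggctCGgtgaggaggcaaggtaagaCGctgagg

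The MAGEB2 promoter held 21 CpG and the MAGEA3 promoter 19. Over the 11 promoters the number ran from 9 to 21 with a median of 15, and the median of 14 over all promoters lay inside that range. Their GC content was 60.7% to 66.3%, all above the median of 58.7% over all promoters. Of the other motifs searched on both strands, GGGCGG (an Sp1 box) was in 6 of 11 promoters against 45.0% of all, CGGAAG in 5 against 19.5%, CCGGAA in 1 against 17.2%, and TATAAA and CACGTG in 0 against 11.5% and 7.26%. CCGGAA and CGGAAG can overlap each other. Counted by gene, GGGCGG and CGGAAG were each in 3 of the 6 genes, and several MAGEA4 starts stand in both promoter counts.

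**Figure D1:**
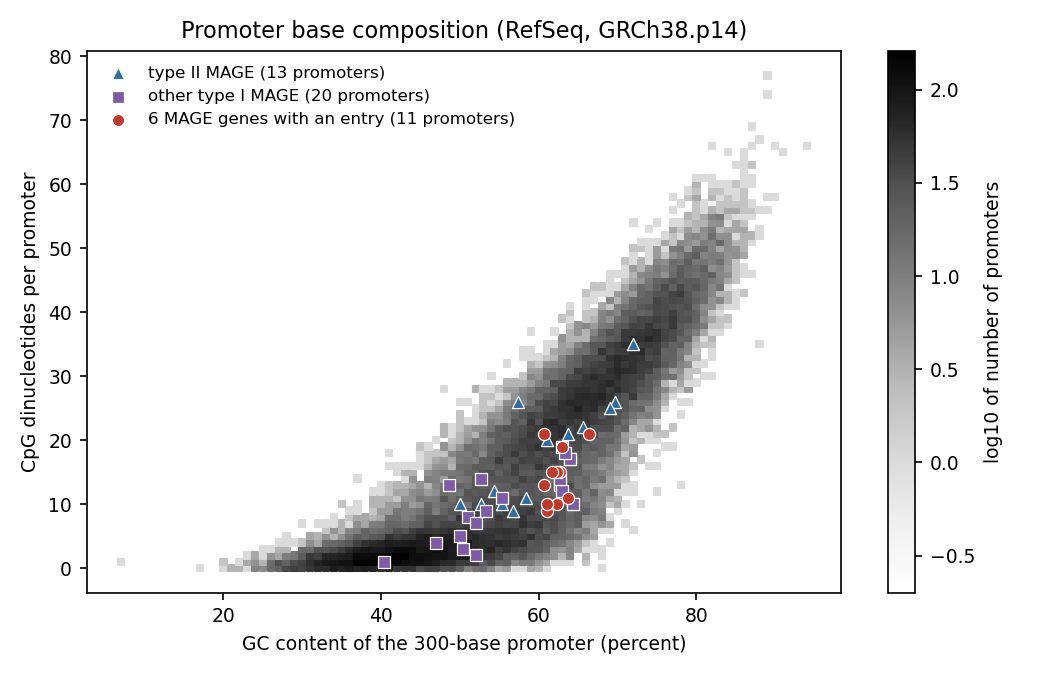
Number of CpG dinucleotides (y axis) against GC content in percent (x axis) of 300-base RefSeq promoters; grey squares show how many of all 35116 promoters lie at each point on a log10 scale, and coloured marks are promoters of the MAGE family. The 11 promoters of the MAGE genes described lie between 9 and 21 CpG.

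The first question was what 3 days of the drug did to these genes. In control cells the 7 genes lay between 0 and 0.394 FPKM, and their summed level was 1.55 FPKM. In treated cells they lay between 3.40 and 24.8 FPKM, with a sum of 106 FPKM, and every one of the 7 was above its control value. The authors' deposited table called 1 of the 7 higher (MAGEA3) and 0 lower at q under 0.05, beside 0.603% of all entries called higher and 0.153% called lower. The median difference of the 7 in log2(FPKM + 1), a scale that understates changes of low genes, was 3.72 (5.48 with a pseudocount of 0.1), beside a median of 0 over all entries. All 7 differed by 1 or more on that scale, as did 4 of the 14 other type I genes measured and 8.69% of all entries. Since the 7 were named with results known, their share is a description and nothing is read from its distance to the others.

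MAGEB2, an Xp21 member of the B subfamily (NM_002364, X chromosome, 30233675 to 30238206, hg19), was at 0.394 FPKM in control, 24.8 FPKM in treated and 11.9 FPKM in recovery cells. It was the highest of the 7 in treated and in recovery cells. Its group values stood in the ratio of 3 control, 250 treated and 59 recovery fragments. The treated level was 63.1 times that of control, with a 95% interval from fragment counting alone of 21.3 to 308. In the authors' deposited table its q was 0.939 against control in treated and in recovery cells.

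MAGEC2, a C subfamily antigen known to bind the ligase TRIM28 (NM_016249, X chromosome, 141290128 to 141293076), was at 0.310 FPKM in control, 18.1 FPKM in treated and 4.12 FPKM in recovery cells. The fragments stood at 3, 232 and 26, which gave a treated level 58.5 times that of control (19.8 to 286 from counting alone). The treated value was thus the third highest of the 7, and the recovery value was the fifth. MAGEA11, which acts as a coregulator of the androgen receptor (NM_001011544, X chromosome, 148769903 to 148798928), was at 0.110 FPKM in control, 13.3 FPKM in treated and 3.71 FPKM in recovery cells. Only 1 control fragment stood against 160 treated and 22 recovery fragments, so the ratio of 121 had an interval of 21.4 to 4812. The authors' deposited table gave q = 0.939 for both genes in either comparison.

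MAGEA1, the founding member of the family (NM_004988, X chromosome, 152481522 to 152486116), was at 0.368 FPKM in control, 20.6 FPKM in treated and 2.07 FPKM in recovery cells. It stood at 3, 222 and 11 fragments, 56.0 times control when treated (18.9 to 274 from counting alone) and 5.62 times control in recovery (1.48 to 31.4). It was the second highest of the 7 in treated cells and the lowest in recovery. In the authors' deposited table its q was 0.939 when treated and 0.943 in recovery.

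MAGEA4 (NM_001011548, X chromosome, 151081361 to 151093642), a target antigen of engineered T cells, was at 0.245 FPKM in control, 11.9 FPKM in treated and 9.32 FPKM in recovery cells. MAGEA12 (NM_001166386, X chromosome, 151895978 to 151903184) was at 0.127 FPKM in control, 13.8 FPKM in treated and 7.76 FPKM in recovery cells. Whole numbers of fragments were not found for either, so their ratios of 48.5 and 109 when treated have no interval. In the authors' deposited table q was 0.939 for MAGEA4 and 0.936 for MAGEA12 in either comparison. The MAGEA12 entry spans 7207 bases, against 3913 bases for the gene in the RefSeq gene table, so fragments of an adjoining transcript may be counted in it.

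MAGEA3, a tumour antigen that activates TRIM28 towards new substrates (NM_005362, X chromosome, 151934652 to 151938240), had a control value of exactly 0, reached 3.40 FPKM under the drug and stood at 5.96 FPKM after recovery. It was the lowest of the 7 in treated cells, yet the only one called, with q = 0.0147 in both comparisons of the authors' deposited table. No fold is given against a control listed at 0. Its 300-base promoter is identical to that of MAGEA6 at all 300 bases, and how fragments were shared between such near copies is not given in the sources used here.

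**Figure D2:**
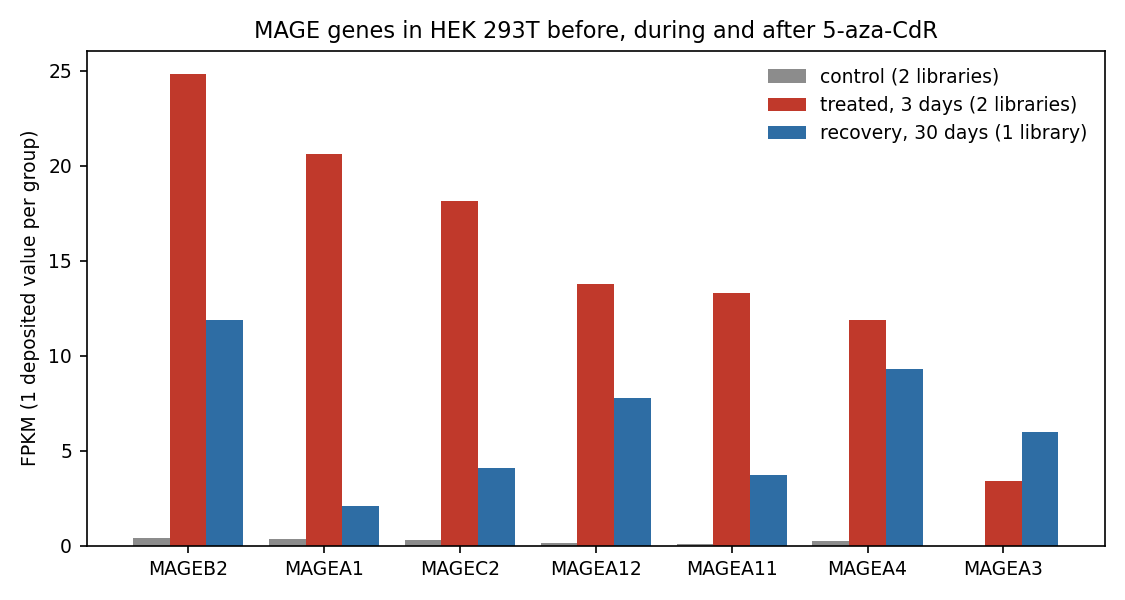
FPKM (y axis, linear from 0) of the 7 MAGE genes (x axis, ordered by treated level) as deposited for control, treated and recovery cells; 1 value per group, so no error bars can be drawn. Control bars reach at most 0.394 FPKM, and MAGEA3 alone is higher in recovery than when treated.

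Calls were unevenly spread over control levels, which bears on how the 7 genes read. Among all RefSeq entries at 3 FPKM or more in treated cells, 77 of 184 with a control at 0 were called higher in the authors' deposited table. Of 134 entries with a control above 0 and under 0.5 FPKM, 0 were called, the lowest q among them being 0.130, and 84 shared the q of 0.939. At 10 FPKM or more when treated, 0 of 20 such entries were called, 6 of which are the MAGE genes above. In recovery the same count was 0 of 112, against 56 of 168 with a control at 0. A control at 0 did not bring a call by itself: GPR27, with values close to those of MAGEA3 (0, 3.32 and 6.10 FPKM), had q = 0.925 when treated in the authors' deposited table. What sets these q-values apart was not tested. A missing call for the 6 genes measured above 0 in control therefore does not show that they were unchanged. The deposited tables give q and not p, so no count at an unadjusted p can be set beside these zeros.

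**Figure D3:**
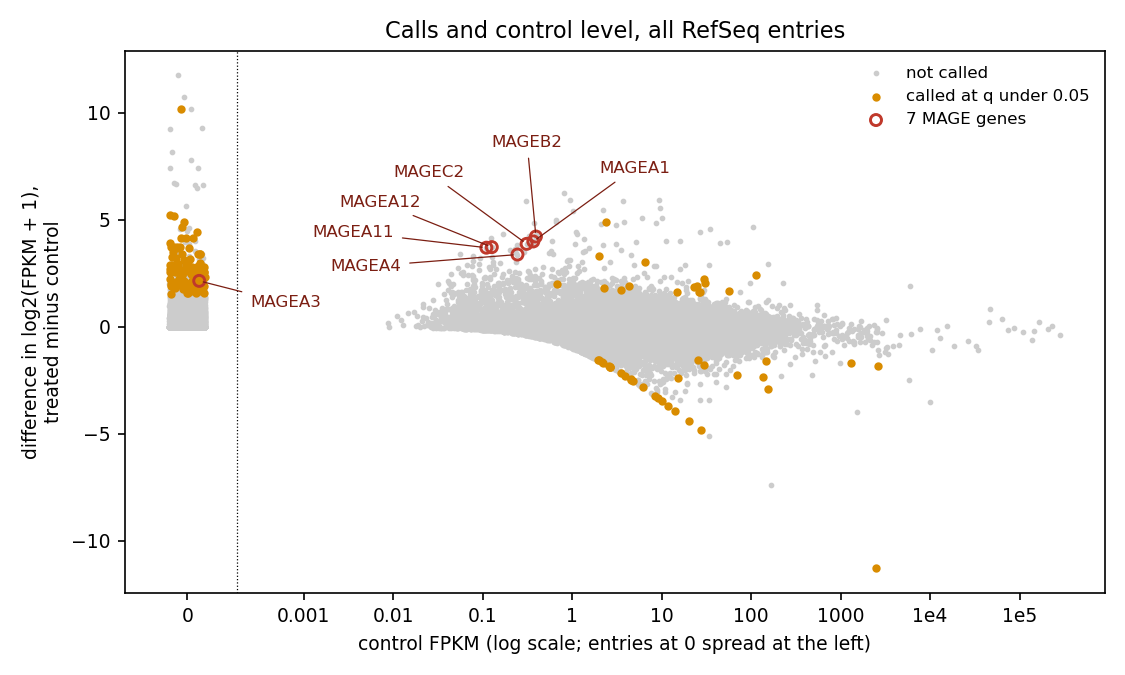
Difference in log2(FPKM + 1) between treated and control (y axis) against control FPKM (x axis, log scale, with entries at 0 spread at the left) for all RefSeq entries; orange points were called by the authors at q under 0.05 and red rings are the 7 MAGE genes. MAGEA3 sits in the strip at 0, and the other 6 lie between 0.110 and 0.394 FPKM, where no entry that reached 3 FPKM was called.

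The next question was how much of the expression was left after 30 days without the drug. In recovery the 7 genes lay between 2.07 and 11.9 FPKM and summed to 44.8 FPKM, which was 42.3% of the treated sum and 28.8 times the control sum. The authors' deposited table again called 1 of 7 higher (MAGEA3) and 0 lower, beside 0.495% and 0.247% of all entries. The median difference from control in log2(FPKM + 1) was 2.80 (4.60 with a pseudocount of 0.1), and all 7 differed by 1 or more, as did 3 of the 14 other type I genes and 7.56% of all entries, which is likewise a description. Recovery against treated was not tested by the authors, and recovery was 1 library.

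The 7 genes differed among themselves in what remained. MAGEA1 was at 10.0% of its treated level (4.94% to 18.3% from fragment counting alone), MAGEC2 at 22.7% (14.5% to 34.1%), MAGEA11 at 27.9% (17.0% to 43.6%) and MAGEB2 at 47.8% (35.4% to 63.7%). MAGEA12 was at 56.2%, MAGEA4 at 78.5% and MAGEA3 at 175%. The intervals of MAGEA1 and MAGEB2 did not overlap, while those of MAGEC2 and MAGEA11 did, and none of them holds the spread between cultures. The order of the levels changed with it. From high to low it was MAGEB2, MAGEA1, MAGEC2, MAGEA12, MAGEA11, MAGEA4 and MAGEA3 in treated cells, and MAGEB2, MAGEA4, MAGEA12, MAGEA3, MAGEC2, MAGEA11 and MAGEA1 in recovery. MAGEA3 and MAGEA12, with the highest and the third highest retained share, are 31.5 kb apart on Xq28. CSAG1, a cancer-testis gene that lies between these 2, was at 32.7% of its treated level. MAGEA4, with the second highest share, lies further away. Whether the retained share goes with position was not tested. Of 384 other entries with a treated difference of 2 or more in log2(FPKM + 1), the median share retained was 47.0% and the quartiles 16.4% and 80.4%. Of those entries 65 (16.9%) were higher in recovery than when treated, as was 1 of the 7 genes.

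**Figure D4:**
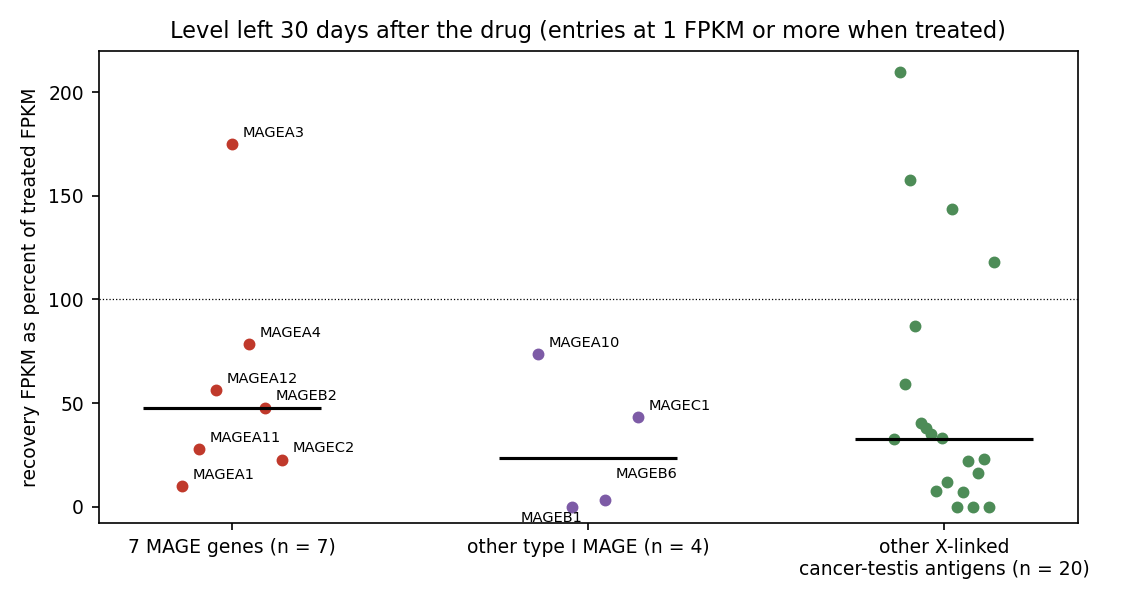
Recovery FPKM as a percentage of treated FPKM (y axis) for entries at 1 FPKM or more when treated, each point 1 entry and each bar a median; the dotted line is 100%. The 7 MAGE genes run from 10.0% for MAGEA1 to 175% for MAGEA3, with a median of 47.8%.

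Elsewhere in the type I family, 14 more genes had an entry. Of these, 3 rose with treatment in the authors' deposited table, beside 0.603% of all entries called higher. Each rose from a control at 0 with q = 0.0147. MAGEB1, 21.9 kb from MAGEB2, went to 9.67 FPKM when treated and was again listed at 0 in recovery, where MAGEB2 was at 11.9 FPKM. Its entry spans 10099 bases against 8310 for the gene. MAGEB6 went to 4.81 FPKM and was at 0.162 FPKM in recovery. MAGEC1, 293 kb from MAGEC2, went to 2.38 FPKM and was at 1.03 FPKM in recovery. In recovery 0 of the 14 were called, at a lowest q of 0.932 in the authors' deposited table. Over all entries 0.495% were called higher and 0.247% lower there.

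Without a call, MAGEA10 had 0.0754 FPKM in control, 4.66 FPKM when treated and 3.44 FPKM in recovery. Its entry spans 24530 bases against 5268 for the gene, so fragments from outside the gene may be counted in it. MAGEA6, the near copy of MAGEA3, was at 0, 0.374 and 1.52 FPKM and like it was higher in recovery than when treated. The MAGEA6 values are low and the number of fragments behind them was not determined, so little rests on this likeness. MAGEB17 (0.723 FPKM) and MAGEB10 (0.320 FPKM) were above 0 in treated cells alone, and MAGEB18 was at 1.49, 0.870 and 1.06 FPKM. The other 6 entries (MAGEA2, MAGEA9B, MAGEB3, MAGEB5, MAGEB16 and MAGEC3) were listed at 0 in every group. For MAGEA2 and MAGEA9B, whose promoters are identical to those of MAGEA2B and MAGEA9, a value of 0 can come from fragments that match both copies, which was not tested. Of 17 other type I genes with a listed promoter 9 held GGATGTG, among them MAGEC1 and MAGEB1 at one of its starts, but also MAGEA2 and MAGEA9B, while MAGEB6, which rose, did not hold it. Of 13 listed type II promoters 0 held it.

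Of 9 measured type II genes, 4 were above 10 FPKM in control and 5 were at 0.218 FPKM or less, as low as the type I genes. MAGED2 was at 119 FPKM in control, 74.1 FPKM in treated and 119 FPKM in recovery cells, and MAGED1 at 94.96, 112 and 107 FPKM. MAGEF1, which is known to direct an E3 ligase to an iron-sulfur assembly factor, was at 67.6, 28.4 and 50.0 FPKM, and MAGEH1 at 10.7, 16.9 and 15.3 FPKM. Of the 9 type II genes 0 were called in either comparison, at a lowest q of 0.387 (MAGEF1, treated) in the authors' deposited table. Calls were rare over all entries, at 0.603% higher and 0.153% lower when treated, and 0.495% and 0.247% in recovery. This 0 is therefore not read as a result about type II genes. NDN (necdin), an imprinted gene, was at 0.218, 4.63 and 5.69 FPKM, and MAGEE1 at 0.106, 1.12 and 1.38 FPKM. MAGED4, MAGEE2 and MAGEL2 were listed at 0 throughout. A further type II gene, TRO, was added with its values known, at 23.1, 18.1 and 27.04 FPKM.

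**Figure D5:**
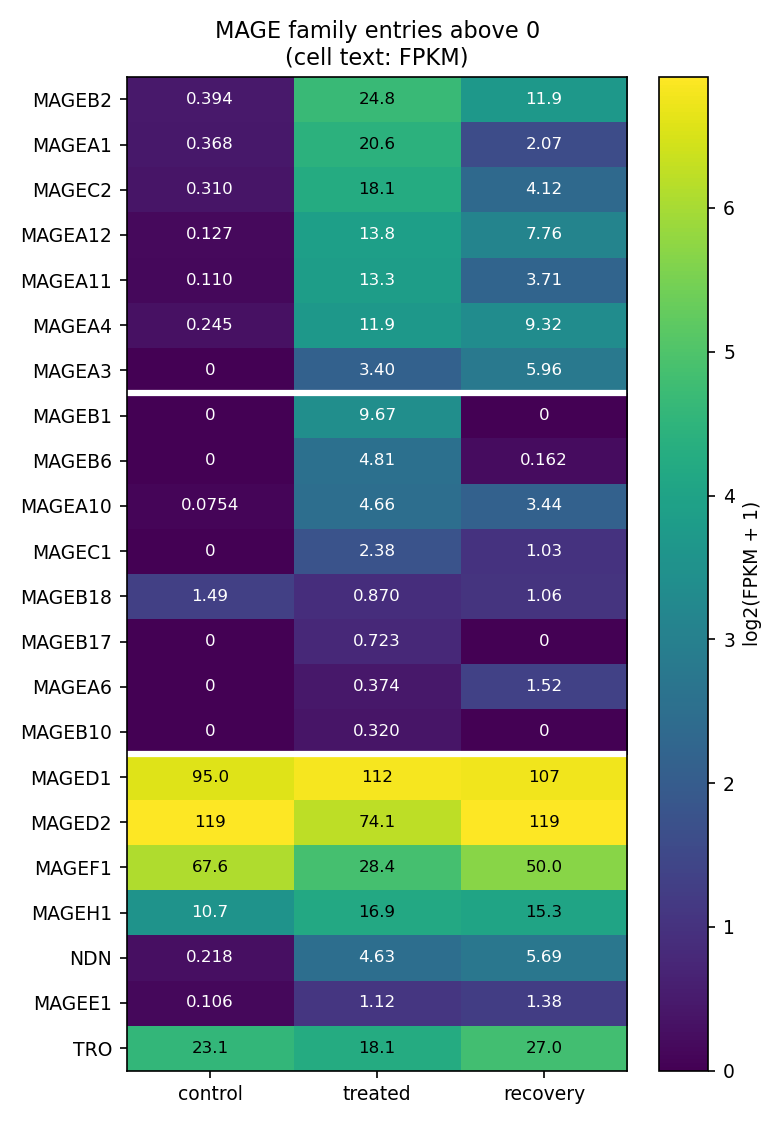
FPKM (cell text) and log2(FPKM + 1) (colour) of the MAGE family entries above 0 in at least 1 group, with the 7 genes described at the top, other type I genes in the middle and type II genes with TRO at the bottom. Type I entries other than MAGEB18 (1.49 FPKM) are at 0.394 FPKM or less in control, while MAGED1, MAGED2 and MAGEF1 are at 67.6 FPKM or more there.

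Of the ligases and substrates through which MAGE proteins act, 4 of 5 measured partners and 2 of 3 measured substrates were above 0 in control, TRIM31 and FBP1 being listed at 0. The highest in control of each kind are given here. TRIM28, the ligase and corepressor bound by MAGEA3 and MAGEC2, was at 91.6 FPKM in control, 118 FPKM in treated and 136 FPKM in recovery cells. PRKAA1, the AMPK catalytic subunit that MAGEA3 with TRIM28 marks for degradation, was at 45.2, 30.7 and 27.9 FPKM. Of 5 ligase partners and 3 substrates measured, 0 were called in either comparison, and the lowest q in the authors' deposited table was 0.404 when treated and 0.821 in recovery. The shares of all entries called were 0.603% higher and 0.153% lower when treated, and 0.495% and 0.247% in recovery. Nothing is read from a count of 0 beside such shares.

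Among 13 measured genes of DNA methylation and MAGE promoter control 0 were called in either comparison. All entries had 0.603% called higher and 0.153% lower when treated, and 0.495% and 0.247% in recovery. The 0 of 13 is thus not read as a result about these genes. HDAC1, a histone deacetylase, was at 164, 105 and 119 FPKM, and DNMT1, the maintenance methyltransferase that the drug traps, at 43.5, 53.5 and 51.4 FPKM. CTCFL, a testis-restricted relative of CTCF that has been reported to bind MAGEA promoters, had the pattern of the type I genes, at 0.242 FPKM in control, 16.7 FPKM in treated and 6.30 FPKM in recovery cells. It was singled out after its values were seen, and its q was 0.130 when treated and 0.142 in recovery in the authors' deposited table. None of the 7 genes bore the authors' mark for affected DNA methylation, which the sources used here do not explain and which was on 14.1% of all entries.

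Other X-linked cancer-testis antigens, such as CT55, SAGE1 and the SPANX and CT45 families, were low in control as well, 30 of 39 being listed at 0. Of the 39, 4 rose in treated cells (SPANXC, CT55, VCX2 and TKTL1) and 3 in recovery (CT55, CT45A5 and SAGE1) in the authors' deposited table. Over all entries 0.603% were called higher when treated and 0.495% in recovery. At 1 FPKM or more when treated were 20 of the 39. Those 20 retained a median of 32.8% of the treated level in recovery, against 47.8% for the 7 MAGE genes and 23.4% for 4 other type I genes. The sums went from 5.64 to 376 and 137 FPKM. The difference between these sets was not tested.

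Neighbouring genes were looked at within 500 kb of the 7 genes. Of 38 RefSeq entries there outside the MAGE family, 0 were called in the authors' deposited table, the lowest q being 0.0863 for CSAG1, a cancer-testis gene beside MAGEA12 that was at 0, 9.48 and 3.10 FPKM. Over all entries 0.603% were called higher and 0.153% lower when treated, and 0.495% and 0.247% in recovery. With so few called anywhere, the 0 of 38 is not read as a result about the neighbours. In treated cells 15 of the 38 (39.5%) lay 1 or more above control in log2(FPKM + 1), beside the 8.69% of all entries given above, and 10 of 38 did in recovery. PNMA5, a paraneoplastic antigen family gene, was at 0.370, 37.9 and 3.02 FPKM, and DUSP9, a MAP kinase phosphatase, at 2.21, 44.6 and 37.8 FPKM; both were named after their values were seen. IDS (28.5, 41.6 and 27.1 FPKM) and GK (3.08, 2.82 and 4.54 FPKM), named likewise, lay closer to their control values. Of 10 lncRNA loci in the same windows 0 were called, at a lowest q of 0.0602 in the authors' deposited table, and 6 were listed at 0 in every group. In treated cells 3 of the 10 (30.0%) lay 1 or more above control in log2(FPKM + 1). They were named after their values were seen. The shares of all lncRNA entries called or raised as far were not computed, so neither count is read as a result about these loci. TCONS_00017274 was at 0, 119 and 11.7 FPKM in the 3 groups, TCONS_l2_00030633 at 2.47, 174 and 1.89 FPKM, and TCONS_l2_00030386 at 259.5, 546 and 37.2 FPKM. TCONS_l2_00030171 went the other way when treated, at 10.9, 0 and 50.0 FPKM.

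Outside the family, the entries nearest to the summed profile of the 7 genes (Euclidean distance in log2(FPKM + 1) over the 3 group values) were the histone genes H3C8 (0.60), H2BC3 (0.61), H2AC14 (0.89) and H1-1 (1.03) and the cancer-testis gene CTAG2 (1.21). CTAG2 was at 0.658, 51.1 and 44.6 FPKM. Nearest to MAGEA3 were GPR27, IBA57-DT and CT83, at distances of 0.04, 0.04 and 0.14. With 3 values per entry, such likeness is a description of level only.

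The depth behind the values was read from ratios that recur exactly among low entries. A single fragment in treated cells was worth 0.757 times a control fragment, and one in recovery 1.53 times, which puts the depth relative to control at 1.32 for treated and 0.652 for recovery cells. Of 784 entries under 0.5 FPKM in control and above 0 in all groups, whole numbers with at most 5 control fragments were found for 497 (tolerance 0.02 fragments). The numbers given above are the smallest such set, and larger sets in the same proportion cannot be told apart from it. Of 8 genes listed for HEK 293 cells, VIM (316 FPKM), KRT18 (231) and CDH2 (24.8) were well above 0 in control. The KRT18 entry spans 55715 bases against 4052 for the gene, and the VIM entry 23355 against 9353. Fragments from outside these 2 genes may thus be counted in them. SALL1 was at 1.91, 2.55 and 1.38 FPKM in the 3 groups, and LHX1 at 1.83, 0.390 and 0.966 FPKM. PAX2, NR0B1 and IRS4, genes that mark HEK 293 cells, were listed at 0 in control. IRS4 rose to 2.13 FPKM when treated and to 27.99 FPKM in recovery in the authors' deposited table. All 8 male germ cell genes measured were at 0 in control. DAZL (16.6 FPKM when treated, 0.783 FPKM in recovery) was the 1 called, when treated, beside 0.603% of all entries called higher. PRM1, PRM2, TNP1, ACR and ZPBP were at 0 in every group. Of 5 melanocyte genes TYR was at 0 in every group and MITF was the highest in each (1.31, 4.03 and 4.12 FPKM). Of the blood cell genes, CD3E was at 0 in every group, and PTPRC, CD14 and LYZ were at 0 in control and recovery and at 0.413 FPKM or less when treated. The part of such shifts in the MAGE values was not tested.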

How the data were processed

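RNA of HEK 293T cells (5 libraries in 3 groups, taken from the titles) went through Trizol and ribosomal RNA removal before library preparation, per the labels' protocols. The submitters' processing notes name Cufflinks, Cuffdiff and the builds hg19 and mm9, with no versions; the coordinates of this human table are taken as hg19. For the aligner and annotation release, the version is not given in the sources used here. As deposited, FPKM values come as 1 per group, with a q-value (adjusted p-value) for each comparison with control, per the file headers. A column of other numbers in the lncRNA table holds the same q-values as deposited. In 1 of 20221 RefSeq entries cells were shifted, and it was left out, as were 2 of 21627 lncRNA entries. No value column was left unmatched.

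Identifiers were matched to symbols with the RefSeq gene table (GRCh38.p14; 19665 entries matched). A gene was called where the authors' q was under 0.05, and the sign of the FPKM difference gave its direction; no test was added. The members and lists were chosen with earlier results of these data known. Named were the 7 genes, MAGE family genes above 0, the 4 highest control values of the partner, substrate and regulator lists, and the nearest profiles; all other genes were named after their values were seen. Fragment numbers are the smallest whole numbers, with at most 5 in control, that give a gene's 3 values. The search was tested on simulated data with 1 count per group, which does not cover group values taken over 2 libraries. Intervals are exact binomial (Clopper-Pearson, 95%) on 2 fragment numbers, rescaled to FPKM, and cover counting error only. Promoters are RefSeq's. Python 3.11.15, pandas 2.3.3 and SciPy 1.17.1 were used. Alternatives were the pseudocount, the scaling, a filter on low values and the q threshold.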

Additional observations from a re-analysis of the deposited data

How the results depend on the processing

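Only group values were deposited, so the fits that leave out a library were not run. No paired analysis was possible because the table holds 1 value per group and the replicate letters of the libraries have no columns. Counts of called genes stayed at 1 in both comparisons at q under 0.10, and became 0 at q under 0.01, a threshold that no entry can pass because the lowest q deposited is 0.0147. Counting a difference of 1 or more in log2(FPKM + 1) in place of q, an alternative chosen after seeing the data, gave 7 of 7 in both. The median difference of the 7 genes against control was 3.72 for treated and 2.80 for recovery cells. It was 5.48 and 4.60 with a pseudocount of 0.1, 4.51 and 3.69 with 0.5, 3.73 and 2.81 after rescaling by the median ratio, and 3.28 and 2.51 after quantile scaling. A filter at a mean of 0.5 FPKM removed none of the 7. The summed level was 106 FPKM when treated (107 under both scalings) and 44.8 FPKM in recovery (45.3 by the median ratio, 44.1 by quantiles). Of 176 alternative values for single family genes 1 changed sign, MAGED2 in recovery, at 0.014 after rescaling by the median ratio. Depth limits the control values most, at 1 to 3 fragments where a number was found.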
